A study of Homo sapiens with 6 samples.

Results

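The activin and inhibin subunit gene INHBE was followed together with 9 genes of its family, its antagonists, its receptors and the stress-induced hormones, in cardiomyocytes made from human induced pluripotent stem cells. The 10 genes were INHBE, INHBA, INHBB and INHA (subunits), FST and FSTL3 (secreted antagonists), ACVR1B and ACVR2A (receptors), and GDF15 and FGF21 (hormones), out of 38557 genes listed. They were chosen by the level of INHBE, which differed between the media compared here, so its values in both media are given as a description with no test. The other 9 were taken for their family or pathway. Each of the 10 symbols was found in every library, and 8 passed the filter on low counts that 16107 genes passed. INHBB and FGF21 did not pass it.

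The cells were cardiomyocytes derived from WTC11, an established wild-type human induced pluripotent stem cell line, and all libraries come from this 1 line. The first group of 3 libraries, labelled biological replicates 1 to 3, was from cells kept in RPMI plus B27. The second group of 3, also labelled 1 to 3, was from cells kept in DMEM plus fatty acids. RNA was sequenced after a stranded messenger RNA preparation, and the composition of the media beyond these names, the fatty acids and the time in culture are not given in the sources used here. The libraries held 23232324 to 31035389 counts assigned to genes, with 21753 to 23057 genes counted at least once. A count of 0 in a library allows a level of up to 0.0889 to 0.129 CPM (counts scaled to the size of the library), taking 3 counts as the limit. Intervals and limits of this kind cover counting error only. Cardiomyocyte markers were present at a summed 28540 to 34390 CPM in RPMI plus B27 and 22440 to 31850 CPM in DMEM plus fatty acids, with TNNT2 at 3001 CPM or more in each library. By the tests described below, none of the 10 was called without the block. With it 2 of the 10 were called, both lower in DMEM plus fatty acids, beside 3.42% of all genes. These were MYH7 (log2 fold change -1.32, adjusted p = 0.0359) and ACTN2 (-1.05, 0.0494). MYH6 was 1.82-fold higher in mean with no overlap (adjusted p = 0.0797 with the block). The media did not overlap in 4 of the 10, beside 25.6% of all genes. DESeq2 called 1 higher and 2 lower, beside 2.40% and 5.13% of all genes.

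Activins and inhibins are secreted dimers of the transforming growth factor beta family. A pair of beta subunits makes an activin, whereas an alpha subunit (INHA) joined to a beta subunit makes an inhibin, which opposes activin at its receptors. Activins bind a type II receptor such as ACVR2A, which recruits a type I receptor such as ACVR1B, and the complex phosphorylates SMAD2 and SMAD3. Follistatin (FST) and FSTL3 bind activins and keep them from the receptors. INHBE, which encodes the beta E subunit, is best known as a liver-made factor, and GDF15 and FGF21 are circulating hormones whose transcripts are known to increase in the integrated stress response, in which ATF4 is translated and drives its target genes.

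Levels below are in CPM scaled with TMM (trimmed mean of M values) factors, and a fold change above 1 (a log2 fold change above 0) means a higher level in DMEM plus fatty acids than in the other medium. A gene is called changed where its Benjamini-Hochberg adjusted p over all 16107 genes was under 0.05 in edgeR's quasi-likelihood test. This test called 219 genes (1.36%), of which 47 (0.292%) rose in DMEM plus fatty acids and 172 (1.07%) fell. Scaled by total counts alone, 74 rose and 128 fell. The labels do not say that same-numbered libraries are pairs. The pairing was inferred from these counts, in which same-numbered libraries deviated together from their group means. The same test was therefore also run with a block for the pair, here named the replicate block. That fit left 2 residual degrees of freedom, against 4 without the block. It called 770 genes (4.78%), 219 of them higher (1.36%) and 551 lower (3.42%). The 3 libraries of each medium did not overlap in 4120 genes (25.6%). An unadjusted p under 0.05 was found for 2848 genes (17.7%). DESeq2 called 1212 genes (7.53%), 386 of them higher (2.40%) and 826 lower (5.13%).

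Of the 7 tested genes other than INHBE, none was called without the block. An unadjusted p under 0.05 was found for 4 of the 7 (INHBA, INHA, FSTL3 and ACVR2A), beside 17.7% of all genes, and DESeq2 called these same 4, beside 7.53% of all genes. With the replicate block, INHBA and FSTL3 were called, both lower in DMEM plus fatty acids, beside 4.78% of all genes called with it. The media did not overlap in 4 of the 7, beside 25.6% of all genes. The log2 fold change was below 0 in 5 and above 0 in 2, and in 5 it had the same sign in each of the 3 pairs. Because the genes were brought together with results of these data known, nothing is read from how these counts compare with those over all genes.

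**Figure D1:**
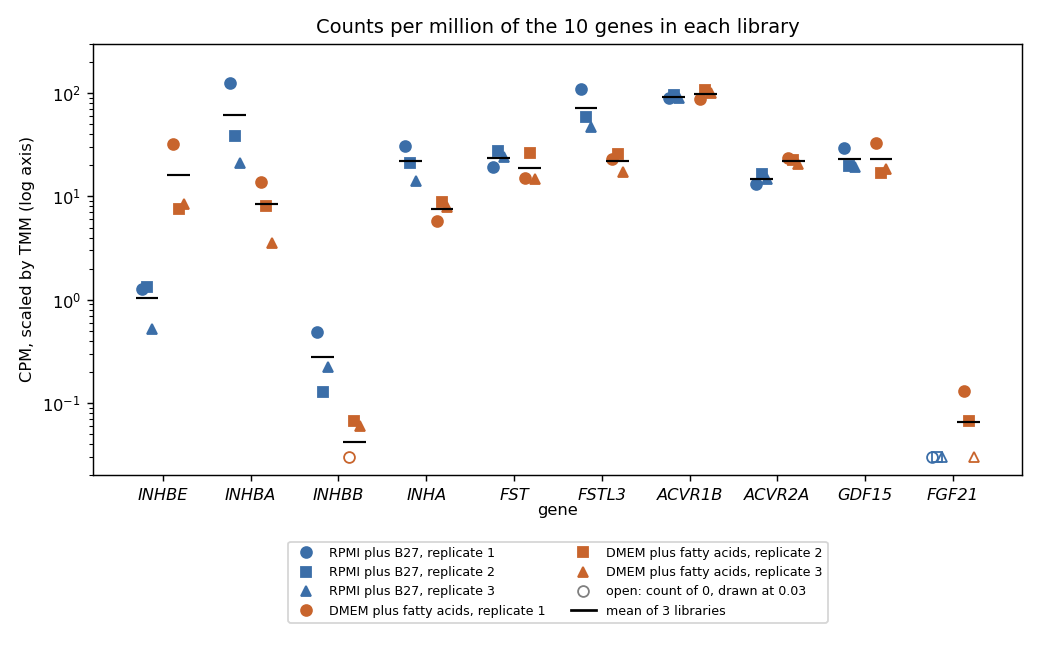
Level of each of the 10 genes in the 6 libraries, in CPM on a log axis, with RPMI plus B27 in blue, DMEM plus fatty acids in orange, marker shape for the replicate number and a bar at the mean of 3 libraries (none where the mean is 0). INHBE lies between 0.522 and 1.32 CPM in RPMI plus B27 and between 7.49 and 32.3 CPM in DMEM plus fatty acids, while INHBA, INHBB, INHA and FSTL3 lie lower in DMEM plus fatty acids in each library than in any library of RPMI plus B27.

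INHBE (ENSG00000139269, chr12:57452323-57459280, plus strand, 2 exons in the transcript used here) was at 1.28, 1.32 and 0.522 CPM in replicates 1 to 3 of RPMI plus B27, from 34, 31 and 14 counts. In DMEM plus fatty acids it was at 32.3, 7.49 and 8.36 CPM, from 750, 224 and 282 counts. The groups did not overlap, and replicate 1 in DMEM plus fatty acids stood far above its own group. The mean was 1.04 ± 0.45 CPM (SD, n = 3) against 16.0 ± 14.1 CPM (SD, n = 3), a ratio of means of 15.4, and the same-numbered pairs differed 25.2-fold, 5.68-fold and 16.0-fold. The fitted log2 fold change was 3.94 ± 0.70 (SE). Without replicate 1 of DMEM plus fatty acids it was 2.92, and it lay between 2.92 and 4.29 over 12 alternative settings.

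INHBA (ENSG00000122641, chr7:41667168-41705834, minus strand) encodes the beta A subunit, which dimerises to activin A. It was at 126.4, 38.5 and 21.0 CPM in RPMI plus B27 and at 13.9, 8.09 and 3.56 CPM in DMEM plus fatty acids. Every library of DMEM plus fatty acids lay below every library of RPMI plus B27, and replicate 1 was the highest and replicate 3 the lowest in both media. The mean was 7.26-fold lower in DMEM plus fatty acids, 8.53 ± 5.21 against 62.0 ± 56.5 CPM (SD, n = 3 each), with a spread in RPMI plus B27 nearly as large as its mean. The log2 fold change was -2.87 ± 0.75 (SE), with an adjusted p of 0.117 in edgeR's quasi-likelihood test. With the replicate block it was -2.67 ± 0.20, with an adjusted p of 0.00642, so INHBA was called lower with the inferred pairs and not without them. It was lower in 3 of 3 pairs. Without replicate 1 of RPMI plus B27 the unpaired log2 fold change was -1.81, and the adjusted p ranged from 0.00642 to 0.293 over the alternatives.

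Set on a common scale, per kilobase of transcript, the order of the INHBA and INHBE transcripts differed between the media. INHBA was at 20.8, 6.36 and 3.47 CPM per kilobase in RPMI plus B27, where INHBE was at 0.527, 0.543 and 0.215. INHBA therefore stood 39.5, 11.7 and 16.1 times above INHBE in these libraries. In DMEM plus fatty acids INHBA was at 2.30, 1.33 and 0.587 CPM per kilobase and INHBE at 13.3, 3.08 and 3.44, so that INHBE stood 5.78, 2.31 and 5.87 times above INHBA. INHBE made up 2.45%, 7.80% and 5.70% of the summed INHBA, INHBB, INHBC and INHBE level in RPMI plus B27 and 85.1%, 68.9% and 83.8% in DMEM plus fatty acids. The summed level itself was 21.5, 6.96 and 3.77 CPM per kilobase in the former and 15.6, 4.47 and 4.11 in the latter, with overlapping groups. INHBE entered these shares, so they are a description with no test. They rest on the transcript lengths used, 6064 bases for INHBA and 2429 for INHBE. By counts alone, INHBE was at 2.31, 0.926 and 2.35 times INHBA in DMEM plus fatty acids. In replicate 2 INHBA was thus the higher by counts.

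**Figure D2:**
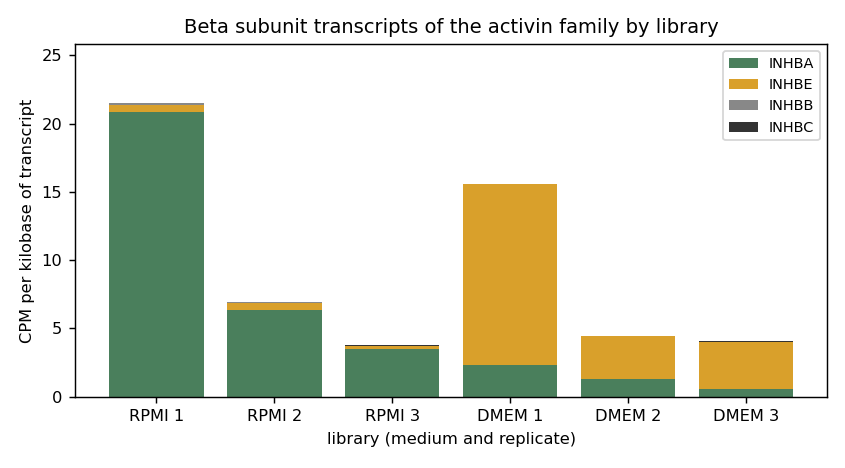
Stacked level of the beta subunit transcripts in each library, in CPM per kilobase of the longest RefSeq-linked transcript, with INHBA in green, INHBE in gold, and INHBB and INHBC in grey and black. INHBA fills most of each bar in RPMI plus B27 (labelled RPMI 1 to 3), and INHBE makes up 68.9% to 85.1% of each bar in DMEM plus fatty acids (DMEM 1 to 3).

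INHBB (ENSG00000163083, chr2:120346143-120351808, plus strand), the beta B subunit gene, was near the limit of detection. It had 13, 3 and 6 counts in RPMI plus B27 and 0, 2 and 2 in DMEM plus fatty acids, where the count of 0 allows up to 0.129 CPM. Summed over 3 libraries these were 22 counts, or 0.286 CPM (exact Poisson 95% interval 0.179 to 0.433), against 4 counts, or 0.0460 CPM (0.0125 to 0.118). It was under the filter and was not tested. INHBA supplied 99.6%, 99.7% and 98.9% of the INHBA plus INHBB counts in RPMI plus B27 and 100%, 99.2% and 98.4% in DMEM plus fatty acids. The difference in this share was -0.23 percentage points (two-sided exact permutation p = 0.7, smallest possible 0.1, n = 3 each). The INHBC transcript, of the other liver-made beta subunit, reached at most 0.119 CPM.

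INHA (ENSG00000123999, chr2:219569162-219575713, plus strand), the alpha subunit of the inhibins, was at 31.1, 21.1 and 14.2 CPM in RPMI plus B27 and at 5.81, 8.76 and 7.97 CPM in DMEM plus fatty acids. The groups did not overlap, and the mean was 2.94-fold lower in DMEM plus fatty acids, 7.52 ± 1.53 against 22.1 ± 8.45 CPM (SD, n = 3 each). The log2 fold change was -1.56 ± 0.31 (SE), adjusted p = 0.0642 in edgeR's quasi-likelihood test, and -1.49 ± 0.31 with the replicate block, adjusted p = 0.0541. It passed 0.05 in 3 of the 12 alternatives: with no filter (0.0168), in DESeq2 (0.000145) and without replicate 3 of RPMI plus B27 (0.0487). The adjusted p over all 12 ranged from 0.000145 to 0.166. The gene lies over OBSL1 on the opposite strand and shares no exon base with it.

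The antagonists are given next. FSTL3 (ENSG00000070404, chr19:676365-683399, plus strand), whose protein binds activin and myostatin, was at 110.3, 58.5 and 47.4 CPM in RPMI plus B27 and at 23.3, 26.0 and 17.3 CPM in DMEM plus fatty acids. Its groups did not overlap, with the widest gap in pair 1, and the mean was 3.25-fold lower in DMEM plus fatty acids (22.2 ± 4.42 against 72.1 ± 33.6 CPM, SD, n = 3 each). The log2 fold change was -1.70 ± 0.33 (SE), adjusted p = 0.0605 in edgeR's quasi-likelihood test. With the replicate block it was -1.62 ± 0.22, adjusted p = 0.0219, so FSTL3 was called lower with the inferred pairs and not without them. Without replicate 1 of RPMI plus B27 the unpaired value was -1.25, and the adjusted p ranged from 5.84e-05 to 0.157 over the alternatives.

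FST (ENSG00000134363, chr5:53480409-53487134, plus strand), which encodes follistatin, was at 19.1, 27.4 and 24.1 CPM in RPMI plus B27 and at 15.2, 26.2 and 14.9 CPM in DMEM plus fatty acids. It was lower in DMEM plus fatty acids in 3 of 3 pairs, but the groups overlapped and replicate 2 was the highest in both media. The log2 fold change was -0.33 ± 0.26 (SE), adjusted p = 0.557 in edgeR's quasi-likelihood test, and -0.36 ± 0.16 with the replicate block, adjusted p = 0.234. FST made up 14.8%, 31.9% and 33.6% of the FST plus FSTL3 counts in RPMI plus B27. In DMEM plus fatty acids it made up 39.6%, 50.2% and 46.1%, which lay above all 3 of the other group. The mean share was 26.8% ± 10.4 against 45.3% ± 5.38 (SD, n = 3 each), a difference of 18.5 percentage points (two-sided exact permutation p = 0.1, the smallest this design allows). The share does not depend on library scaling, and without replicate 1 of RPMI plus B27 the difference was 12.5 percentage points.

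The receptor genes showed small differences between the media. ACVR1B (ENSG00000135503, chr12:51951667-51997078, plus strand), the type I activin receptor ALK4, was at 89.3, 95.9 and 90.2 CPM in RPMI plus B27 and at 88.2, 107.1 and 100.9 CPM in DMEM plus fatty acids. Its groups overlapped, and the log2 fold change was 0.11 ± 0.11 (SE), adjusted p = 0.674 in edgeR's quasi-likelihood test. ACVR2A (ENSG00000121989, chr2:147844517-147930826, plus strand), a type II receptor, was at 13.2, 16.3 and 14.9 CPM in RPMI plus B27 and at 23.4, 22.3 and 20.7 CPM in DMEM plus fatty acids. Every library of DMEM plus fatty acids lay above every library of RPMI plus B27, the spread within each group was small (14.8 ± 1.60 and 22.2 ± 1.34 CPM, SD, n = 3 each) and the mean was 1.50-fold higher. The log2 fold change was 0.58 ± 0.15 (SE), adjusted p = 0.110 in edgeR's quasi-likelihood test and 0.0802 with the replicate block, and of the 12 alternatives only DESeq2 passed 0.05 (0.0152). ACVR2A shares 430 exon bases with ORC4 on the opposite strand, and the strand setting of the counting is not given in the sources used here, so reads there cannot be told apart. ORC4 itself was at 26.1 to 35.0 CPM and 36.5 to 40.0 CPM in the respective media, with a log2 fold change of 0.32 ± 0.14 (SE) and an adjusted p of 0.299 in the same test.

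Of the hormones, GDF15 was at like levels in both media and FGF21 was near the limit of detection. GDF15 (ENSG00000130513, chr19:18374731-18389176, plus strand) was at 29.7, 19.9 and 19.2 CPM in RPMI plus B27 and at 32.8, 17.0 and 18.6 CPM in DMEM plus fatty acids, with replicate 1 the highest in both media. The means were 23.0 ± 5.87 and 22.8 ± 8.73 CPM (SD, n = 3 each). The log2 fold change was -0.01 ± 0.30 (SE), adjusted p = 0.989 in edgeR's quasi-likelihood test, and -0.04 ± 0.13 with the replicate block, adjusted p = 0.870. Its sign changed in 5 of the 12 alternatives, between -0.37 and 0.22. FGF21 (ENSG00000105550, chr19:48755559-48758333, plus strand) had no count in any library of RPMI plus B27 and 3, 2 and 0 counts in DMEM plus fatty acids. The counts of 0 allow up to 0.113, 0.128 and 0.112 CPM in RPMI plus B27 and 0.0889 CPM in replicate 3 of DMEM plus fatty acids. The 5 counts in DMEM plus fatty acids amount to 0.0576 CPM (exact Poisson 95% interval 0.0187 to 0.134), and a difference was not detectable at this depth.

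Of the 9 members that could be searched, FGF21 was the 1 found to hold a C/EBP-ATF response element, the composite site known to be bound by ATF4. The search covered the 250 bases upstream of the start in RefSeq (GRCh38.p14). The element was searched as TGATGNAA on both strands. For ACVR2A, GDF15, FST and INHA, 250, 241, 220 and 115 of the 250 bases lay in annotated exons of the gene itself. Their windows were thus in part transcribed sequence. The element was found in 1104 of the 35116 upstream windows (3.14%), and 9 of the 10 members had a window. INHBE was the member without a window, so its upstream sequence was not searched. The cyclic AMP response element TGACGTCA, searched the same way, was found in 578 windows (1.65%) and in none of the members'. Of the 22 ATF4-responsive genes described below, 18 had a window and 4 of these held the composite element. The 5 sites are shown because FGF21 and these stress genes share the letters while their transcripts differed widely in level. Each is 30 bases, printed 5′ to 3′ in the direction of the element with the match in capitals.
FGF21, chr19:48755459-48755488, minus strand: ctcctcctcccTGATGCAAtcctggtgttt
ATF3, chr1:212565205-212565234, plus strand: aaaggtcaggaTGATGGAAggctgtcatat
CHAC1, chr15:40953251-40953280, minus strand: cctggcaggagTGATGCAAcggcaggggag
ASNS, chr7:97872458-97872487, minus strand: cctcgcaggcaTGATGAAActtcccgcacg
CEBPG, chr19:33374060-33374089, plus strand: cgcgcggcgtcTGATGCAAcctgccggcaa
The 8 matched bases were identical in FGF21, CHAC1 and CEBPG. The site in FGF21 ends 47 bases before the start, and the one in CEBPG ends 35 bases before it. A match of letters describes the sequence only and is not evidence of a bound site.

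**Figure D3:**
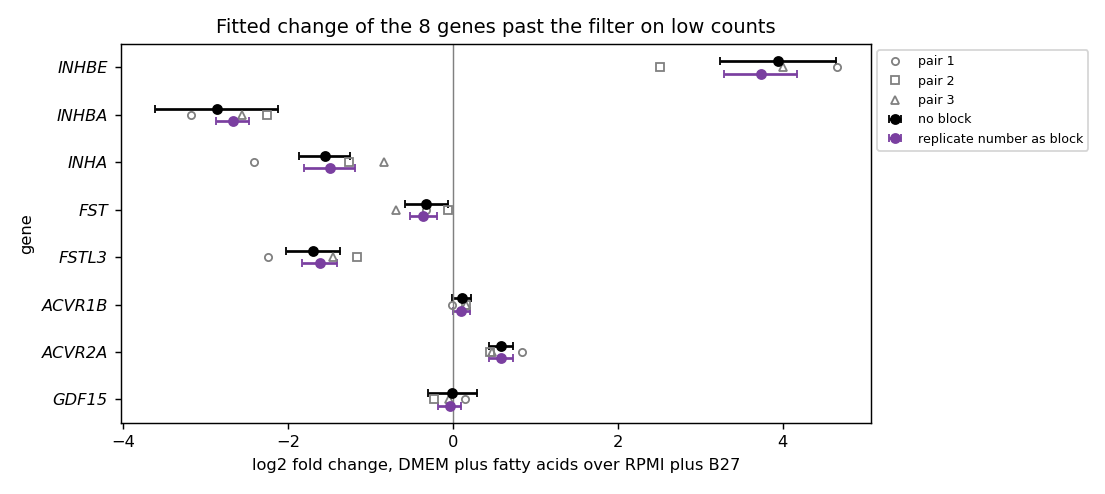
Log2 fold change of the 8 tested genes (above 0 is higher in DMEM plus fatty acids), fitted without the block (black) and with it (purple), with bars of 1 SE and open grey marks for the 3 same-numbered pairs. INHBA, INHA and FSTL3 lie below 0 in each pair, INHBE and ACVR2A above 0 in each pair, and GDF15 at -0.01 and -0.04.

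Compared per kilobase of transcript, the genes stood in a different order in the media. In RPMI plus B27 FSTL3 had the highest mean (28.4 ± 13.2 CPM per kilobase), followed by ACVR1B (20.1 ± 0.79), GDF15 (19.1 ± 4.89), INHA (15.1 ± 5.76), INHBA (10.2 ± 9.31) and FST (9.28 ± 1.64). Each of these 6 overlapped its neighbour in that order. Below them, without overlap at each step, came ACVR2A (2.58 ± 0.28), INHBE (0.428 ± 0.185) and INHBB (0.0875 ± 0.0586). FGF21 had no count, and at this depth it could not be placed above or below INHBB. In DMEM plus fatty acids ACVR1B (21.6 ± 2.11) and GDF15 (19.0 ± 7.27) came first and overlapped. They lay above FSTL3 (8.74 ± 1.74), FST (7.40 ± 2.54), INHBE (6.61 ± 5.79), INHA (5.12 ± 1.04) and ACVR2A (3.87 ± 0.23), whose neighbours overlapped. INHBA (1.41 ± 0.86) lay below these, and FGF21 and INHBB were lowest, at 0.0498 and 0.0131. All are means ± SD over 3 libraries, so INHBE passed from below FST, INHA, INHBA and ACVR2A in order of mean to a place among them.

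The wider pathway was described from lists of its parts. The lists too were chosen with earlier results of these data known. Nothing is therefore read from how their counts compare with those over all genes. Over all tested genes the median log2 fold change was 0.01, and 51.0% of genes were above 0. Among other ligands of the activin and myostatin branch, 5 of 10 were tested. Of these 1 was called, beside 1.36% of all genes: LEFTY2, which encodes a secreted inhibitor of Nodal. LEFTY2 fell from 152.4, 148.6 and 106.6 CPM to 10.2, 21.6 and 30.2 CPM, with a log2 fold change of -2.71 ± 0.38 (SE), adjusted p = 0.0338 in edgeR's quasi-likelihood test. The call was lost on leaving out replicates 1 or 2 of RPMI plus B27 or 2 or 3 of DMEM plus fatty acids (adjusted p 0.0684 to 0.109). TGFB1, TGFB2, TGFB3 and GDF11 were not called, with log2 fold changes of -0.53, -0.28, 0.19 and 0.11, and MSTN (myostatin) and NODAL were below 0.16 CPM in every library.

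Among 12 receptors and co-receptors, none was called with or without the block. An unadjusted p under 0.05 was found for 3 of the 12 (ACVR2A, TGFBR1 and ACVR1C), beside 17.7% of all genes, and DESeq2 called 1, ACVR2A, beside 7.53%. Their median log2 fold change was 0.08, with 7 above and 5 below 0 (8 and 4 by total counts). TGFBR1, the type I receptor for transforming growth factor beta, was at 54.9, 39.6 and 40.2 CPM against 32.5, 30.1 and 31.9 CPM, log2 fold change -0.51, adjusted p = 0.166 in the same test. ACVR1C, the type I receptor ALK7, known as a receptor for activin E in fat, was scarce. It was at 0.490, 0.511 and 0.522 CPM in RPMI plus B27 and at 1.38, 0.769 and 0.978 CPM in DMEM plus fatty acids, log2 fold change 1.02 ± 0.35 (SE), adjusted p = 0.192 in edgeR's quasi-likelihood test.

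Of 8 tested extracellular antagonists, 7 had a log2 fold change below 0, with a median of -0.66, and none was called without the block. For FSTL3, GREM1 and FSTL1 the unadjusted p was under 0.05, beside 17.7% of all genes, and DESeq2 called 3, beside 7.53%. The block called FSTL3 and GREM1, both lower, beside 4.78% of all genes called with it. GREM1, which encodes the bone morphogenetic protein antagonist gremlin 1, was at 5.12, 3.06 and 0.820 CPM in RPMI plus B27 and at 0.129, 0.167 and 0 CPM in DMEM plus fatty acids. These came from 136, 72 and 22 counts and from 3, 5 and 0 counts, the 0 allowing up to 0.0889 CPM. GREM1 passed the filter on low counts through RPMI plus B27 alone, and its fold change rests on few reads in DMEM plus fatty acids. Its adjusted p was 0.0632 in edgeR's quasi-likelihood test and 0.0131 with the replicate block, and its log2 fold change of -4.93 lay between -5.64 and -4.28 on leaving out each library in turn (-4.30 without replicate 1 of RPMI plus B27, -5.64 and -4.28 without replicates 2 and 3 of DMEM plus fatty acids). FSTL1, a secreted glycoprotein of fibroblasts, was at 638, 631 and 603 CPM against 209, 378 and 393 CPM, with a log2 fold change of -0.93 ± 0.24 (SE) and an adjusted p of 0.112.

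Downstream of the receptors, none of the 5 SMAD transducers was called, with or without the block or in DESeq2. For SMAD2 alone of these 5 the unadjusted p was under 0.05, beside 17.7% of all genes. SMAD2 was at 103.7, 122.1 and 86.3 CPM against 148.1, 159.1 and 140.3 CPM, log2 fold change 0.52 ± 0.15 (SE), adjusted p = 0.141 in edgeR's quasi-likelihood test and 0.0518 with the replicate block. All 10 SMAD inhibitors and feedback genes, several of which are transcribed in response to SMAD signalling, had a log2 fold change below 0, with a median of -0.35 (-0.25 by total counts, again with all 10 below 0). A single gene of the 10 was called, beside 1.36% of all genes. This was PMEPA1, which encodes a membrane protein that binds receptor SMADs. It fell from 39.0, 40.8 and 27.8 CPM to 8.96, 14.2 and 10.6 CPM (log2 fold change -1.67 ± 0.23 SE, adjusted p = 0.0338 in edgeR's quasi-likelihood test). That call was kept without replicate 3 of RPMI plus B27 (0.0410) and lost on leaving out any other library (0.0698 to 0.116). An unadjusted p under 0.05 was found for 4 of the 10, beside 17.7% of all genes, and DESeq2 called 1, lower, beside 5.13%. With the replicate block 2 of the 10 were called lower, beside 3.42% of all genes. Besides PMEPA1 this was SKIL, a co-repressor (log2 fold change -0.50, adjusted p = 0.0472 with the block). SMAD7 (-0.54) and SMURF2 (-0.33) were not called in either fit.

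FURIN, the protease that cleaves activin precursors, was at 167.6, 168.9 and 168.5 CPM in RPMI plus B27 and at 117.2, 134.4 and 123.7 CPM in DMEM plus fatty acids. Its groups did not overlap, and the log2 fold change of -0.43 ± 0.10 (SE) had an adjusted p of 0.104 in edgeR's quasi-likelihood test. None of the 4 convertases was called with or without the block. For 1 (FURIN) the unadjusted p was under 0.05, beside 17.7% of all genes, and DESeq2 called 1, beside 7.53%. Among the receptors for the hormones, FGFR1, through which FGF21 signals with its co-receptor KLB, fell from 115.9, 105.8 and 108.7 CPM to 61.2, 66.2 and 59.7 CPM (log2 fold change -0.82 ± 0.10 SE, adjusted p = 0.0292 in edgeR's quasi-likelihood test). That call was kept without replicate 3 of RPMI plus B27 (0.0493) and lost on leaving out any other library (0.0543 to 0.104). It was the 1 called gene of 5 tested in this list, beside 1.36% of all genes. KLB (at most 0.671 CPM) and the GDF15 receptor GFRAL (1 count in 1 library) were under the filter.

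**Figure D4:**
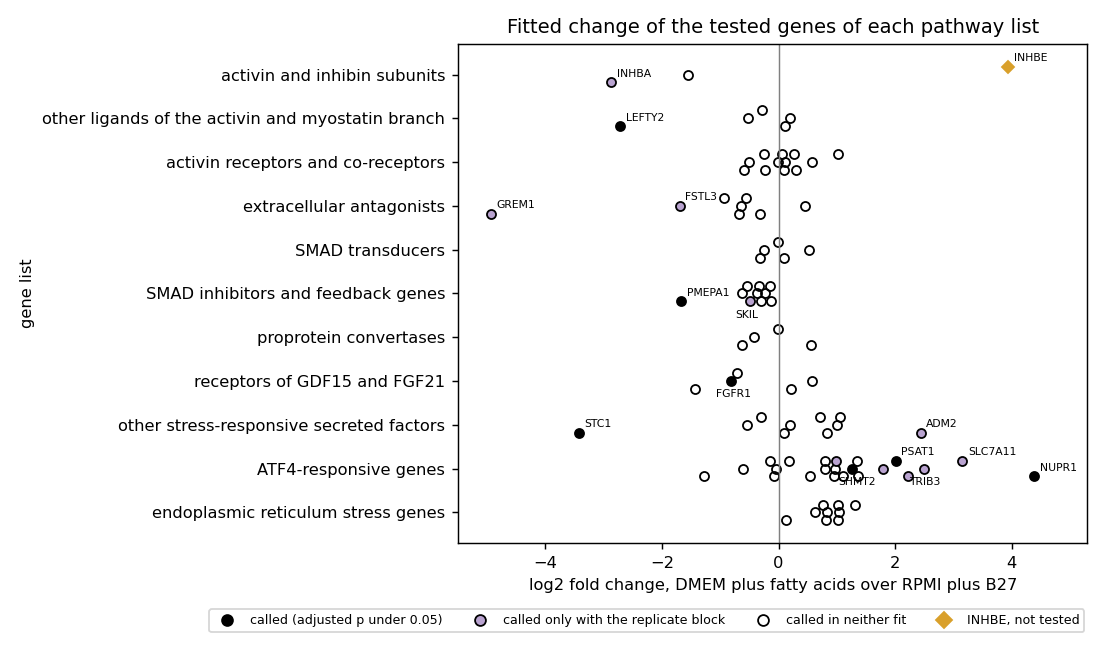
Log2 fold change of each tested gene of the pathway lists (above 0 is higher in DMEM plus fatty acids), with filled black points for genes called without the block, purple for those called only with it, open points for the rest and a gold diamond for INHBE, which was not tested. The 10 SMAD inhibitors and feedback genes lie below 0 and the 9 endoplasmic reticulum stress genes above 0.

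Other secreted stress factors gave a mixed picture, with 10 of 13 tested. Without the block 1 was called lower and none higher, beside 1.07% and 0.292% of all genes. STC1, the secreted glycoprotein stanniocalcin 1, fell from 56.5, 28.1 and 14.1 CPM to 3.88, 3.68 and 1.66 CPM (log2 fold change -3.43 ± 0.57 SE, adjusted p = 0.0427 in edgeR's quasi-likelihood test). That call was kept without replicate 3 of RPMI plus B27 (0.0410) and lost on leaving out any other library (0.0798 to 0.132) and with 10 counts required in every library (0.0524). Without replicate 1 of RPMI plus B27 the log2 fold change was -2.79. ADM2, a peptide of the calcitonin family, was at 0.791, 0.468 and 0.447 CPM in RPMI plus B27 and at 4.74, 1.77 and 2.88 CPM in DMEM plus fatty acids. Its log2 fold change was 2.44 ± 0.46 (SE), with an adjusted p of 0.0589 in edgeR's quasi-likelihood test and of 0.0218 with the replicate block. ADM2 was thus called higher with the inferred pairs and not without them. The list's median log2 fold change was 0.46.

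The 22 ATF4-responsive genes respond to amino acid shortage and other stresses. This list was also chosen with earlier results known, so the counts that follow are a description. Without the block 3 of the 22 rose and none fell, beside 0.292% of all genes that rose. With the block 8 of the 22 rose and none fell, beside 1.36% of all genes that rose. Their median log2 fold change was 0.98, 17 of the 22 were above 0 (19 by total counts), 16 had an unadjusted p under 0.05 (17.7% of all genes), and DESeq2 called 10 higher and 1 lower (2.40% and 5.13% of all genes). PSAT1, an enzyme of serine synthesis, rose from 12.9, 14.3 and 23.5 CPM to 80.6, 43.2 and 80.9 CPM (log2 fold change 2.01 ± 0.32 SE, adjusted p = 0.0405 in edgeR's quasi-likelihood test). SHMT2, the mitochondrial serine hydroxymethyltransferase, rose from 64.9 to 77.5 CPM in RPMI plus B27 to 118.7 to 207.8 CPM (log2 fold change 1.27 ± 0.21 SE, adjusted p = 0.0427). NUPR1, a stress-induced chromatin protein, rose from 0.301, 0.213 and 0.0746 CPM to 7.75, 1.81 and 3.05 CPM (log2 fold change 4.39 ± 0.73 SE, adjusted p = 0.0427). It had 8, 5 and 2 counts in RPMI plus B27 and 180, 54 and 103 in DMEM plus fatty acids. NUPR1 thus passed the filter on low counts through DMEM plus fatty acids alone, and its fold change rests on few reads in RPMI plus B27. The PSAT1 call was kept without replicate 3 of RPMI plus B27 (0.0418) and lost on leaving out any other library (0.0698 to 0.129). The SHMT2 and NUPR1 calls were lost on leaving out any library (0.0575 to 0.134 and 0.0741 to 0.134), and that of SHMT2 also with 10 counts required in every library (0.0524), a filter that NUPR1 did not pass. Without replicate 1 of DMEM plus fatty acids the log2 fold change of NUPR1 was 3.60.

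TRIB3, a pseudokinase that curbs ATF4, was, like INHBE, highest in replicate 1 of DMEM plus fatty acids. It was at 4.94, 5.45 and 4.92 CPM in RPMI plus B27 and at 51.3, 19.0 and 16.1 CPM in DMEM plus fatty acids, log2 fold change 2.49 ± 0.45 (SE), adjusted p = 0.0520 in edgeR's quasi-likelihood test and 0.0274 with the replicate block. Without replicate 1 of DMEM plus fatty acids its log2 fold change was 1.78. The ATF4 transcript was at 189.3, 147.0 and 141.7 CPM against 211.1, 130.5 and 123.5 CPM, log2 fold change -0.04 and adjusted p = 0.945. ATF3 and ASNS, whose sites are printed above with that of CEBPG, differed in direction. They had log2 fold changes of -1.28 ± 0.42 and 1.37 ± 0.45 (SE), both with an adjusted p of 0.183 in edgeR's quasi-likelihood test, and CEBPG had 0.80 ± 0.26 with 0.177. The value for ASNS rests on few reads, 18, 10 and 7 counts in RPMI plus B27 and 38, 26 and 36 in DMEM plus fatty acids. CHAC1, the remaining stress gene with a printed site, had 1.80 ± 0.34 (SE), adjusted p = 0.0583 in edgeR's quasi-likelihood test and 0.0238 with the replicate block. ATF3, ASNS, CEBPG and CHAC1 were named here for their sites and ATF4 for the list it heads, after their values were seen.

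All 9 endoplasmic reticulum stress genes had a log2 fold change above 0, with a median of 0.83, yet none was called with or without the block. The unadjusted p was under 0.05 for 6 of the 9, beside 17.7% of all genes, and DESeq2 called 2, beside 7.53%. Replicate 1 of DMEM plus fatty acids stood apart: HSPA5, the chaperone BiP, was at 382.8, 578.0 and 602.2 CPM in RPMI plus B27 and at 1942, 819.8 and 454.7 CPM in DMEM plus fatty acids. That library, in which INHBE was highest, also had the highest DNAJB9 (274.8 CPM), HERPUD1 (148.2 CPM) and SEL1L (307.6 CPM). The part of this in the level of INHBE was not tested. HSPA5 was named after its values were seen, and its adjusted p was 0.323 in edgeR's quasi-likelihood test.

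**Figure D5:**
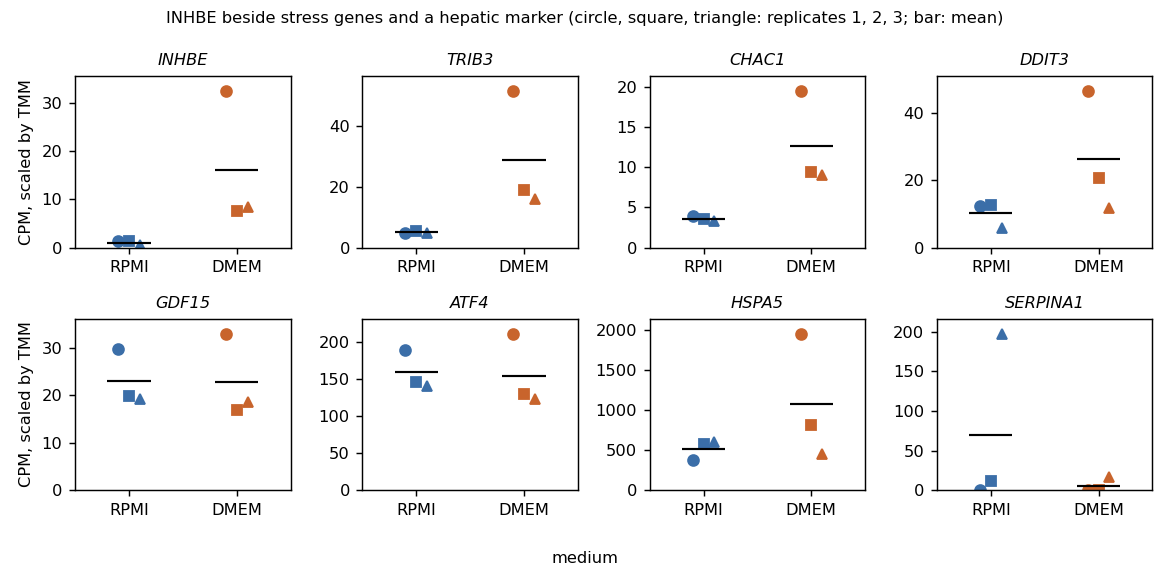
Level of INHBE beside TRIB3, CHAC1, DDIT3, GDF15, ATF4 and HSPA5 (stress genes) and SERPINA1 (a hepatic marker) in the 6 libraries, in CPM, with circle, square and triangle for replicates 1, 2 and 3 and a bar at the mean. Replicate 1 of DMEM plus fatty acids is the highest library in each panel but SERPINA1, where it has no count, and GDF15, ATF4, DDIT3, HSPA5 and SERPINA1 overlap between the media.

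Markers of other cells were measured beside these results, since in bulk RNA fewer cells of a type and less RNA per cell cannot be told apart. The 10 fibroblast and stromal markers were all lower in DMEM plus fatty acids, summing to 4334 to 8398 CPM in RPMI plus B27 and 732.7 to 1944 CPM in DMEM plus fatty acids. They were highest in replicate 1 of RPMI plus B27, as were INHBA, INHA, FSTL3, GREM1 and STC1. Within DMEM plus fatty acids the order was another. The stromal sum was lowest in replicate 1 (732.7 CPM, against 1944 and 1800 in replicates 2 and 3). In that library INHA was also lowest, INHBA and STC1 were highest, and FSTL3 and GREM1 lay between the other libraries of the medium. DCN, the fibroblast proteoglycan decorin, was at 37.9, 22.2 and 11.6 CPM in RPMI plus B27 and at 0, 0.602 and 0.593 CPM in DMEM plus fatty acids. The 6 smooth muscle markers were also all lower, summing to 1946 to 2284 CPM against 577.5 to 1353 CPM, as were the 5 tested epicardial markers of 7 (summed over all 7, 1692 to 2238 against 798.0 to 1023 CPM). Nearly all of the epicardial sum was the keratins KRT8 and KRT18, and WT1 was at 0.867 CPM or less. The part of these cells in the lower INHBA, INHA, FSTL3, GREM1, LEFTY2, PMEPA1, FGFR1 and STC1 was not tested.

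INHBE is known from liver, and the 9 hepatic and endoderm markers summed to 15.9, 56.7 and 313.1 CPM in RPMI plus B27 and 7.75, 22.4 and 49.3 CPM in DMEM plus fatty acids. The highest sum, in replicate 3 of RPMI plus B27, came with the lowest INHBE (0.522 CPM), and the lowest sum, in replicate 1 of DMEM plus fatty acids, with the highest INHBE. In that library ALB, SERPINA1, FOXA2, TTR and FGB had no count and HNF4A was at 0.129 CPM, while APOA1, at 7.49 CPM, made up nearly all of the sum. The part of hepatic cells in the level of INHBE was not tested. Endothelial markers ran from 29.4 to 239.4 CPM in RPMI plus B27 and 114.8 to 463.5 CPM in DMEM plus fatty acids, nearly all of it KDR, with CDH5 at 0 in the 3 libraries of DMEM plus fatty acids. Pluripotency markers summed to at most 2.79 CPM.

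The genes whose pattern was most like that of INHBE were ranked by Pearson's r of log2 CPM over the 6 libraries, among the 10272 genes whose mean reached 10 CPM in 1 or both media. The libraries share their medium, pair and depth, so r is a description and carries no p. The 8 highest were NCOA4 (0.992), a receptor for ferritin autophagy, SARS1 (0.990), the cytosolic seryl-tRNA synthetase, CPEB3 (0.989), EXOC1 (0.989), CADPS2 (0.988), CHAC1 (0.988), a glutathione-degrading enzyme, SIRT5 (0.987), a mitochondrial deacylase, and TSPAN32 (0.986). In all, 258 genes (2.51%) had an r over 0.9. With the mean of each medium removed, the 8 highest were SNX16 (0.996), ZDHHC14 (0.994), SNX6 (0.987), KIAA0355 (0.987), ZNF33A (0.985), SIRT5 (0.984), SCML1 (0.983) and LRRC28 (0.980), and 122 genes (1.19%) were over 0.9. SIRT5 was in both sets of 8.

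Among the members, ACVR2A had the highest r with INHBE over the 6 libraries (0.903) and INHA the lowest (-0.827), with INHBA at -0.585 and FSTL3 at -0.752. With the mean of each medium removed the order was another. GDF15, whose means hardly differed between the media, had 0.864, INHBA had 0.695 and ACVR1B had -0.700. The same measure for stress genes was 0.925 for CHAC1, 0.918 for DDIT3, 0.887 for ATF4 and 0.863 for TRIB3, each of which was highest in replicate 1 of DMEM plus fatty acids, and 0.847 for ASNS, from the low counts given above. It was 0.023 for PSAT1, which was called higher in DMEM plus fatty acids.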

How the data were processed

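Each of the 6 libraries came as 1 deposited table of whole-number read counts per gene, made by the authors with STAR and HTSeq on hg38, per the submitters' processing notes. Versions, the annotation and the strand setting are not given in the sources used here. The 5 summary rows that name no gene were left out of library sizes and tests: rows that name genes held 84.4% to 87.2% of each table's counts, and reads with no feature 5.44% to 7.57%.

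Genes were kept with filterByExpr (minimum count 10, minimum total 15), scaled by TMM, and tested across all 6 libraries with edgeR 4.0.16 (quasi-likelihood) in R 4.3.3, with limma 3.58.1, and with Benjamini-Hochberg adjustment at 0.05. DESeq2 1.42.0 was an alternative. The other alternatives were RLE and total-count scaling, no filter, 10 counts in every library, the replicate block, and each library left out. The fit was checked on simulated counts first.

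Same-numbered libraries deviated together from their group means (r 0.313, 0.428 and 0.365, against -0.242 to -0.136 for other pairs), so the numbers were taken as pairs. This pairing comes from the data and the shared numbers, since the labels do not say what a number stands for. Nothing says whether the biological replicates came from separate differentiations, and p-values then measure only the spread between these samples.

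The members and lists were chosen with earlier results of these data known. Named genes were the members, the 8 genes most like INHBE by each of 2 measures, and in each list the called genes and up to 4 with the smallest p, beside the genes named for a printed site and ATF4. HSPA5, DDIT3, GDF11, INHBC, MSTN, NODAL, KLB and GFRAL were named outside this rule, with their values known. So were single cell type markers, and ORC4 and OBSL1 for their overlap with members. Positions, exons and transcript lengths are from GENCODE v29 (GRCh38), and upstream sequences from RefSeq (GRCh38.p14).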

Additional observations from a re-analysis of the deposited data

How the results depend on the processing

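The number of genes called moved with the processing, from 219 to 539 with no filter on low counts, 119 with 10 counts in every library, 1212 in DESeq2 and 770 with the replicate block. On leaving out each library in turn it was 3 to 131: 30, 4 and 131 without replicates 1, 2 and 3 of RPMI plus B27, and 11, 12 and 3 without those of DMEM plus fatty acids. Of the 7 tested members, 3 were called with no filter, 4 in DESeq2, 2 with the replicate block, 1 without replicate 3 of RPMI plus B27 and 0 on leaving out each other library. The cause of these shifts was not tested, beyond that fewer libraries enter the fits that leave one out. Scaling by total counts moved the median fold change over all genes to 0.119 on the log2 scale and gave 74 higher and 128 lower calls against 47 and 172. Among the members and the list genes named by the rule, signs reversed for 5 genes, none of them called: GDF15 (0.0901 by total counts, 0.00284 with no filter, -0.37 to 0.22 on leaving out a library), PCSK7 (0.0931 by total counts, -0.0879 to 0.0968 on leaving out a library), PCSK5 (-0.0612 to 0.841), FGFR4 (-1.90 to 0.21) and FOXH1 (-1.04 to 0.77), the last 3 also on leaving out a library. Over whole lists, scaling by total counts put 19 in place of 17 of the ATF4-responsive genes above 0, 8 in place of 7 receptors, 3 in place of 2 SMAD transducers, 2 in place of 1 convertase and 4 in place of 3 cardiomyocyte markers. INHBE, INHBA, INHA, FST, FSTL3, ACVR1B and ACVR2A kept their direction in all 12 alternatives. The difference in the INHBA share was -0.64 to 0.18 percentage points over the libraries left out, above 0 without replicate 3 of DMEM plus fatty acids, and with the replicate block -0.23 (exact sign-flip p = 0.5). The difference in the FST share was 12.5 to 21.9 on leaving out a library, and 18.5 with the replicate block (exact sign-flip p = 0.25, the smallest that 3 pairs allow). Counts under about 10 per library, as for INHBB and FGF21, limit what can be seen of those genes.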
